A study of Homo sapiens with 4 samples.

Results

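Tetraspanins are small membrane proteins that cross the membrane repeatedly and carry a large extracellular loop. The set described here holds 10 of their genes, TSPAN3, TSPAN4, TSPAN5, TSPAN13, TSPAN14, TSPAN17, TSPAN18, CD63, CD81 and CD82. It was selected on the log2 difference of TSPAN18, one of the largest increases in the KLF3 knockdown, so the values of TSPAN18 are a description without a test, and the other genes were named with results of the same comparison known. All probes annotated to these symbols were taken, 17 of the 47322 probes in the scanner table. They cover 9 of the 10 genes, among 20045 named genes on the array, and CD63, a tetraspanin of late endosomes, was not analysed here because no probe carried its symbol in the annotation used.

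The arrays came from K562, a human erythroleukemia line that carries the BCR-ABL fusion. Cells stably carrying a short hairpin RNA against KLF3 (2 arrays) were compared with cells carrying a control hairpin (2 arrays), to ask which transcripts differ when this transcriptional repressor is depleted. Each group stands for 1 line. The study's design text speaks of duplicate profiles of each sample, and nothing says that the arrays of a group came from separate cultures. The p-values therefore reflect array-to-array spread, which may be technical. KLF3 was not well above background on either of its probes, at 139 and 139 in the KLF3 knockdown arrays and 130 and 143 in the control arrays for the brighter probe, so the arrays give no check of the depletion.

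Tetraspanins act by holding other membrane proteins, such as integrins, proteases, immune receptors and ion channels, in tetraspanin-enriched microdomains. TSPAN5, TSPAN14 and TSPAN17 belong to the TspanC8 group, whose members bind the protease ADAM10 and take it to the cell surface. TSPAN18 has been described as a partner of ORAI1, the pore of store-operated calcium entry, in human endothelial cells. CD63 and CD81 are widely used markers of extracellular vesicles. KLF3 binds CACCC-type sequences and recruits CtBP corepressors.

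Of the 17 probes, 13 were detected (detection p under 0.01) on all 4 arrays and entered the test, and 4 were not kept. Intensity and detection p are those of the deposited scanner table. Log2 values are background-corrected and quantile-normalized with an offset of 16, which damps differences of dim probes, and log2 differences are KLF3 knockdown minus control. Probes of a gene are lettered from the brightest down. The test was limma across all 15722 kept probes, Benjamini-Hochberg adjusted, with calls at 0.05. With 2 arrays a group, the smallest p that exact permutation allows is 0.333.

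Promoter windows of RefSeq (build GRCh38.p14, 250 bases before to 50 after an annotated start) were found for 7 of the 10 genes, all but TSPAN3, TSPAN18 and CD81, with 20 windows in all. Of these, 3 are printed. TSPAN13 had the largest increase after TSPAN18, and TSPAN14 and TSPAN17 are TspanC8 genes of which the first rose and the second did not pass the test. They lie at chr7:16753505-16753804 on the plus strand, chr10:80454060-80454359 on the plus strand (the first of 3 windows of that gene) and chr5:176647234-176647533 on the plus strand. Capitals mark each match to CCNCNCCC on either strand, the C-rich core shared by KLF and SP sites.
TSPAN13: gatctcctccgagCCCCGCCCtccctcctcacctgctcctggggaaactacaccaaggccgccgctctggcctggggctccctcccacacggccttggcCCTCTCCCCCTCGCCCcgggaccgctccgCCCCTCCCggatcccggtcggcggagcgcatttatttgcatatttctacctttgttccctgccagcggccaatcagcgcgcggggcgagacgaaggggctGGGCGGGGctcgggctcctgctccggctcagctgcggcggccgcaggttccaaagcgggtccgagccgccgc
TSPAN14: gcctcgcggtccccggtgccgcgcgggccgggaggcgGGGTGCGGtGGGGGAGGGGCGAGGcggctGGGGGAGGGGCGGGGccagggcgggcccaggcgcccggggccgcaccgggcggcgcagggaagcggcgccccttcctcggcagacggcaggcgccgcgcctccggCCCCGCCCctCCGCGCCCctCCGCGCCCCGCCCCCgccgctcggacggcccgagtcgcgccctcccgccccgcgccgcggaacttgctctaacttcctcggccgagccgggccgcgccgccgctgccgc
TSPAN17: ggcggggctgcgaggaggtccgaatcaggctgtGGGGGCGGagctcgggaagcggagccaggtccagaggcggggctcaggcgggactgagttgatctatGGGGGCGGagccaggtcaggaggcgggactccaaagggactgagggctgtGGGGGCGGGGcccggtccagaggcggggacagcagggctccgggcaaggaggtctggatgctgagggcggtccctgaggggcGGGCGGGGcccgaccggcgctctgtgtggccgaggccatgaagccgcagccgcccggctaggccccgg
The windows held 5, 12 and 5 such matches, overlapping ones included. The shorter motif CACCC, searched on both strands, occurred 0, 1 and 0 times. Over all 35116 promoter windows of the table, 56.2% held CCNCNCCC and 59.9% held CACCC. Of the 20 member windows 19 held the first motif and 16 the second, and 8 of the 20 belong to CD63, some of them overlapping. The member windows ranged from 51.7% to 85.7% in GC content. The shares were not matched for GC content, so no enrichment is read from them. Whether these counts go with the differences was not tested, and TSPAN18 had no window.

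TSPAN18 was far higher in the KLF3 knockdown on 1 of its 2 probes. Probe a (ILMN_1699980) gave intensities of 439.7 and 436 in the KLF3 knockdown arrays, against 160.5 and 160.5 in the control arrays. The arrays of each group were nearly equal and the groups lay far apart. Normalized log2 values were 8.36 and 8.44 in the KLF3 knockdown arrays, against 5.61 and 5.64 in the control arrays, with means of 8.40 ± 0.06 in the KLF3 knockdown and 5.62 ± 0.02 in the control (SD, n = 2 each). The log2 difference was 2.77, or 6.84-fold. It ranked 7th from the top among the 15722 kept probes.

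The control level of TSPAN18 was close to the background. The detection p was 0 on both KLF3 knockdown arrays, and 0.0039 and 0.00649 on the control arrays, which corresponds to 3 and 5 of 770 negative controls at or above the probe. The control values lay 0.11 and 0.11 above the lowest log2 value of any detected probe on those arrays. The fold therefore depends on how background is handled. It was 2.73-fold in the deposited intensities, 2.76-fold in the authors' processed table, 2.82-fold with quantile normalization alone, 4.46-fold with an offset of 50 and 9.17-fold in background-corrected intensities without an offset. Its direction was the same on all of these scales.

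TSPAN18 probe b (ILMN_1710899) was not detected on any array. It gave 122 and 121 in the KLF3 knockdown arrays, against 109 and 114 in the control arrays, all under the array medians of 136 to 140. The annotation assigns the same transcript accession to both probes. The increase of TSPAN18 rests on probe a alone.

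**Figure D1:**
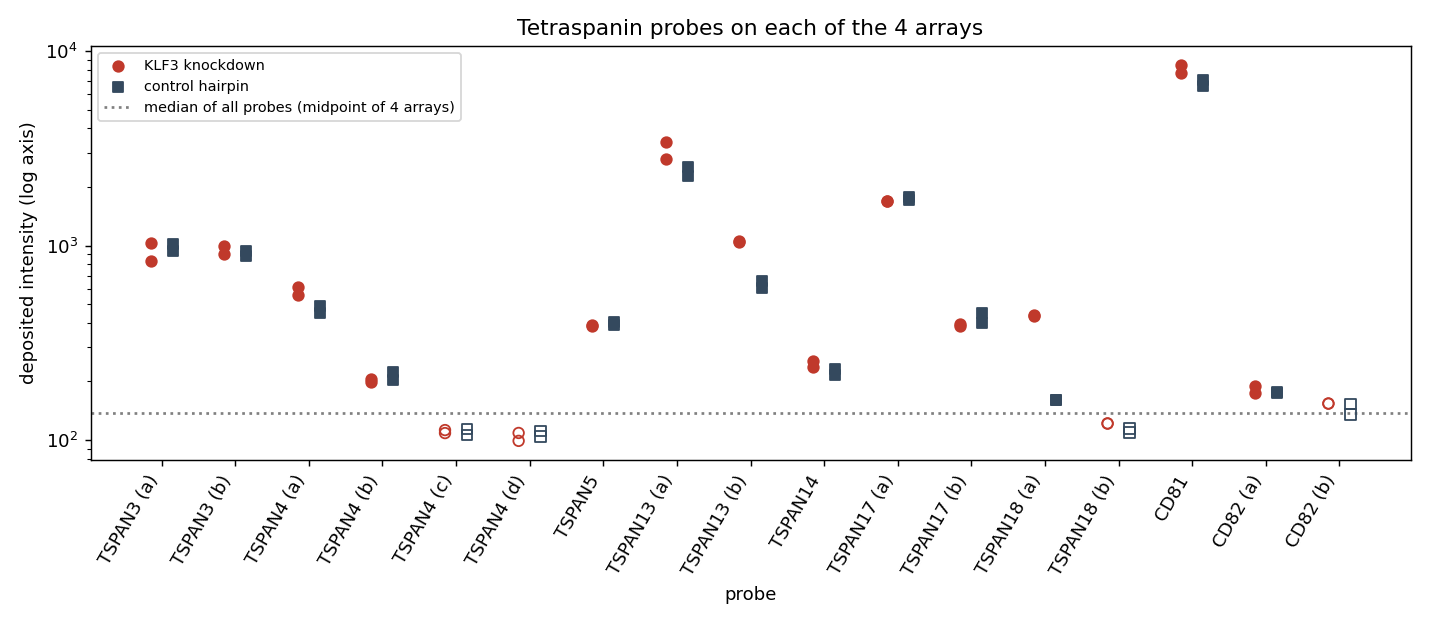
Deposited intensity (log axis) of each of the 17 tetraspanin probes on the 2 KLF3 knockdown arrays (red circles) and the 2 control arrays (dark squares), with open symbols for the 4 probes not kept and a dotted line at the midpoint of the array medians of all probes. TSPAN18 probe a stands near the dotted line in the control arrays (160.5) and well above it in the KLF3 knockdown arrays (436 and 439.7), while its probe b lies under the line on all 4 arrays.

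The 5 named genes whose 4 array values, centred on the control mean, lay closest to those of TSPAN18 were ACSS1, SH3GL3, SEMA4D, ADGRV1 and CA1, at Euclidean distances of 0.16 to 0.31 over 4 arrays. ACSS1 encodes a mitochondrial acetyl-CoA synthetase and CA1 the carbonic anhydrase of red cells. With 2 arrays a group this likeness says little more than that the differences are of like size. All of them but SEMA4D were undetected in both control arrays, so for these the fold on the normalized scale with the offset of 16 is a bound: ACSS1 was at least 4.05-fold higher, SH3GL3 at least 3.63-fold, ADGRV1 at least 4.31-fold and CA1 at least 5.21-fold, against the lowest detected signal. In the deposited intensities, which include the background, the ratios were 2.18 for ACSS1, 2.22 for SH3GL3, 2.38 for ADGRV1 and 2.49 for CA1. SEMA4D, encoding a semaphorin, read 388 and 372 in the KLF3 knockdown arrays, against 156 and 157 in the control arrays.

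TSPAN18 lies next to CD82 on chromosome 11, the 2 genes being neighbours in the order of protein-coding genes. CD82, also known as KAI1 and described as a suppressor of metastasis, was dim. Its probe a read 175 and 190.1 in the KLF3 knockdown arrays, against 174 and 177 in the control arrays, so that the groups overlapped after normalization. The log2 difference was 0.25 (SE 0.15, pointwise 95% interval -0.12 to 0.61, limma adjusted p = 0.244). Without KLF3 knockdown replicate 1 it was 0.46 and passed (limma adjusted p = 0.0322). Probe b of CD82 was not detected on any array.

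Among the 6 protein-coding genes on each side of TSPAN18, those with kept probes were C11orf96, ACCS, EXT2, CD82, SLC35C1 and CRY2. Of these only C11orf96 passed the test. Over all kept probes 34.5% were called, and nothing about the region is read from so few probes. C11orf96 had 1 kept probe, which read 382 and 365 in the KLF3 knockdown arrays, against 272 and 265 in the control arrays, a log2 difference of 0.85 (SE 0.09, limma adjusted p = 0.0019). EXT2, a heparan sulfate polymerase gene, differed by 0.08 and 0.17 on its 2 kept probes and SLC35C1, a GDP-fucose transporter gene, by 0.00, neither passing. ACCS differed by 0.37 (limma adjusted p = 0.0901) and passed without background correction (0.21, limma adjusted p = 0.041), with an intensity trend (0.0489), in the authors' processed table (0.0403) and with the replicate block (0.0372). CRY2, encoding a circadian repressor, differed by -0.24 (limma adjusted p = 0.082). TP53I11, PRDM11, SYT13, CHST1, ALX4 and ACCSL had no kept probe.

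**Figure D2:**
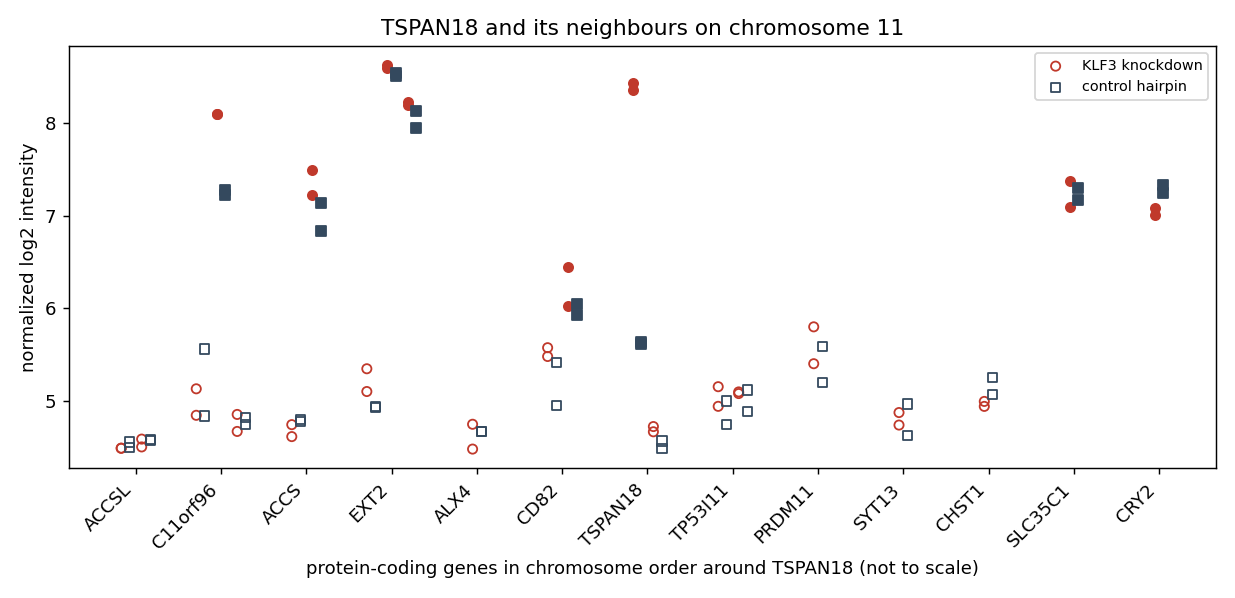
Normalized log2 intensity of every probe of TSPAN18 and of the 6 protein-coding genes on each side of it, in chromosome order and not to scale, on the KLF3 knockdown arrays (red circles, left of each pair) and the control arrays (dark squares), filled where the probe was kept. TSPAN18 probe a shows the widest gap (8.36 and 8.44 in the KLF3 knockdown, 5.61 and 5.64 in the control), C11orf96 the next, and CD82 overlaps.

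Among the other members, TSPAN13, TSPAN4 and TSPAN14 passed as higher on at least 1 probe, and no kept probe passed as lower. Of the 12 kept probes other than TSPAN18, 4 passed as higher and 0 as lower, where 16.9% of all kept probes were called higher and 17.5% lower by limma. At an unadjusted limma p under 0.05 the counts were 5 higher and 0 lower, where the shares of all kept probes were 22.8% and 24%. Nothing is read from this share, since the genes were named with this comparison known. The 12 differences ran from -0.06 to 0.92 with a median of 0.18, and the median over all kept probes was -0.01. The groups did not overlap for 6 of the 12, against 71.4% of all kept probes.

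TSPAN13, also known as NET-6 and described as a modulator of voltage-gated calcium channels, had the largest difference of these. Its probe b (ILMN_2130525) read 1046 and 1049 in the KLF3 knockdown arrays, against 603 and 656 in the control arrays. The groups lay clearly apart, with a log2 difference of 0.92 (SE 0.10, limma adjusted p = 0.00234), or 1.89-fold. Probe a (ILMN_1669881) read 3422 and 2780 in the KLF3 knockdown arrays, against 2266 and 2537 in the control arrays. One KLF3 knockdown array was therefore only slightly above the control arrays, and the log2 difference was 0.41 (SE 0.11, limma adjusted p = 0.0386), or 1.33-fold.

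The 2 probes of TSPAN13 agreed in direction and differed in size. On each array, the log2 value of probe b minus that of probe a was -1.82 and -1.50 in the KLF3 knockdown, against -2.17 and -2.17 in the control, a shift of 0.51 that reached only the smallest possible exact permutation p of 0.333 (two-sided). Probe b passed whichever array was left out. Probe a did not pass without control replicate 1 (0.33, limma adjusted p = 0.189), control replicate 2 (0.49, limma adjusted p = 0.0865) or KLF3 knockdown replicate 1 (0.29, limma adjusted p = 0.116).

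TSPAN4, also known as NAG-2 and described as a builder of migrasomes, rose on 1 of 2 kept probes. Probe a (ILMN_1718607) read 611 and 558 in the KLF3 knockdown arrays, against 449 and 491 in the control arrays, a log2 difference of 0.48 (SE 0.10, limma adjusted p = 0.015), or 1.40-fold. Probe b (ILMN_2340027) read 205 and 199 in the KLF3 knockdown arrays, against 224 and 204 in the control arrays, with groups that overlapped and a log2 difference of -0.06 (SE 0.11, pointwise 95% interval -0.33 to 0.21, limma adjusted p = 0.701). The annotation assigns these probes to different transcript accessions of TSPAN4. The gap between the probes shifted by 0.54 (exact permutation p = 0.333, two-sided, the smallest possible). The other 2 probes of TSPAN4 were not detected on any array. Without control replicate 1 probe a did not pass (0.39, limma adjusted p = 0.0943).

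Of the TspanC8 genes among the members, only TSPAN14 passed the test. TSPAN14 read 253 and 237 in the KLF3 knockdown arrays, against 231 and 216 in the control arrays, a narrow gap without overlap. Its log2 difference was 0.37 (SE 0.10, limma adjusted p = 0.0317), or 1.29-fold, and it did not pass when any 1 array was left out, with differences of 0.28 to 0.45 and adjusted p of 0.0598 (without KLF3 knockdown replicate 2) to 0.178 (without control replicate 2). TSPAN5 read 384 and 390.3 in the KLF3 knockdown arrays, against 407 and 390.5 in the control arrays, and differed by 0.05 (pointwise 95% interval -0.18 to 0.28, limma adjusted p = 0.727). TSPAN17, the brightest of these, read 1696 and 1704 on probe a in the KLF3 knockdown arrays, against 1776 and 1719 in the control arrays. Its probes differed by -0.01 and -0.04, with pointwise 95% intervals of -0.23 to 0.20 and -0.32 to 0.24, so increases of the size fitted for TSPAN13 probe b lie outside these intervals. Whether TSPAN14 differed from TSPAN5 or TSPAN17 was not tested.

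CD81, an entry receptor of hepatitis C virus, missed the threshold by a small margin. It read 8511 and 7723 in the KLF3 knockdown arrays, against 6594 and 7076 in the control arrays, so every KLF3 knockdown value was above the control values. The log2 difference was 0.27 (SE 0.09, limma adjusted p = 0.0629), or 1.21-fold. It passed without background correction (0.27, limma adjusted p = 0.00654) and in the authors' processed table (0.27, limma adjusted p = 0.00609). It also passed with an intensity trend (limma adjusted p = 0.0043), an offset of 50 (0.0305), the mean of the probes per gene (0.0426) and the brightest probe per gene (0.0472). In 8 settings it did not pass.

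TSPAN3, reported in mice to be needed by acute myeloid leukemia cells, did not pass on either probe. Probe a read 1033 and 831 in the KLF3 knockdown arrays, against 940 and 1022 in the control arrays, with the 2 groups interleaved. Probe b read 990.1 and 903 in the KLF3 knockdown arrays, against 884 and 943 in the control arrays. The log2 differences were -0.03 and 0.12, with pointwise 95% intervals of -0.32 to 0.25 and -0.10 to 0.34.

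**Figure D3:**
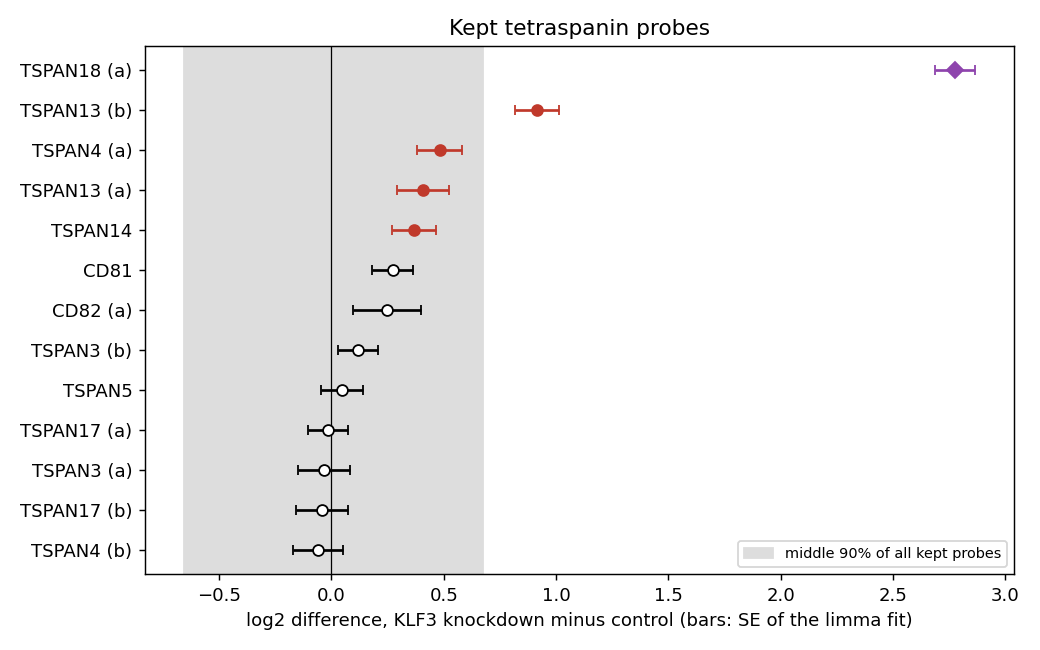
Log2 difference (KLF3 knockdown minus control) of the 13 kept tetraspanin probes with the standard error of the limma fit, filled where the probe passed the test and as a diamond for TSPAN18, which was chosen for its increase and is shown as a description. The grey band covers the middle 90% of the 15722 kept probes, and beside TSPAN18 at 2.77 only TSPAN13 probe b at 0.92 lies outside it.

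**Figure D4:**
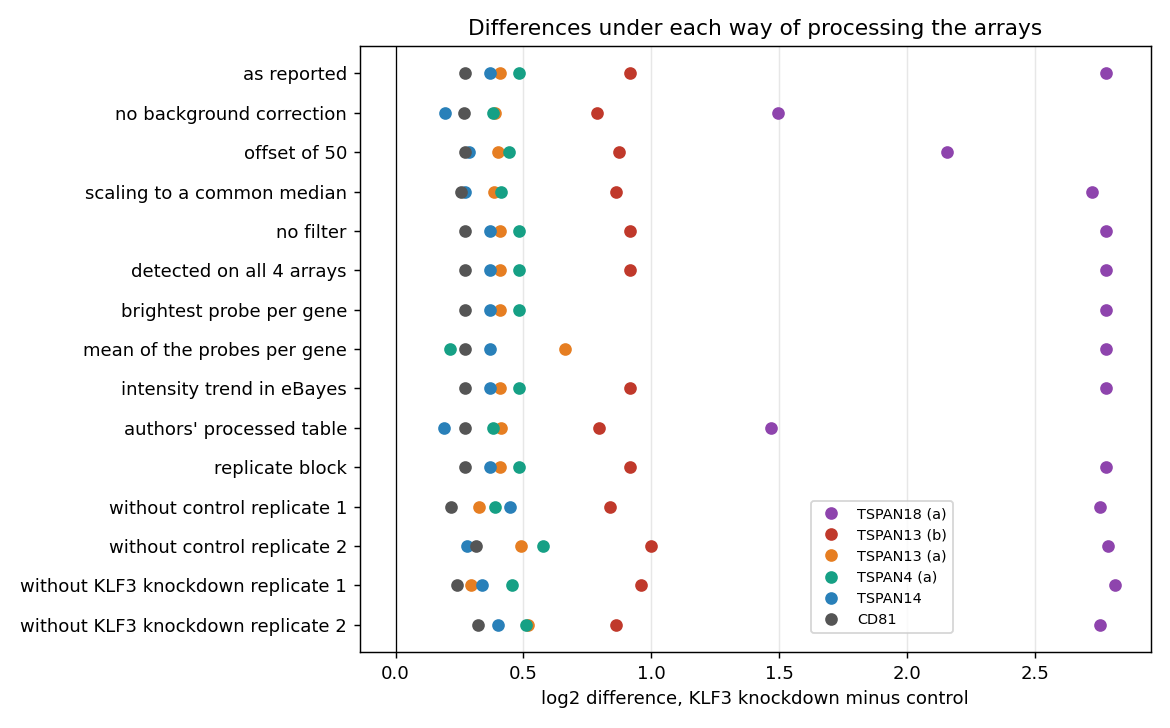
Log2 difference of 6 tetraspanin probes under each way of processing the arrays, with 1 row for each setting. TSPAN18 moves between 1.47 and 2.81, mostly with the background correction, whereas the 5 other probes keep their direction, the lowest value being 0.19 for TSPAN14.

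Of 23 further tetraspanin genes, 7 had kept probes, 10 in all, with a median log2 difference of -0.24. They are the family members left after a choice made with this comparison known, so nothing is read from their direction. By limma 0 passed as higher and 3 as lower (30% called, against 34.5% of all kept probes). At an unadjusted limma p under 0.05 the counts were 0 higher and 6 lower, where the shares of all kept probes were 22.8% and 24%. Of the 3 lower probes, those of TSPAN9 and CD37 entered only through the control arrays, and 1 lower call was left when detection on all 4 arrays was required. TSPAN9, a platelet tetraspanin, read 153 and 146 in the KLF3 knockdown arrays, both undetected, against 197 and 184 in the control arrays. On the normalized scale with the offset of 16 it was at least 1.60-fold lower, a bound taken against the lowest detected signal and given as a description. CD37, a tetraspanin of B cells, read 143 and 138 in the KLF3 knockdown arrays, both undetected, against 177 and 160 in the control arrays, at least 1.15-fold lower on the same scale.

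CD53, a leukocyte tetraspanin, passed as lower on 1 of its 2 probes in the reported setting. That probe read 493 and 480.1 in the KLF3 knockdown arrays, against 667 and 628 in the control arrays, a log2 difference of -0.44 (SE 0.09, limma adjusted p = 0.0144). The other differed by -0.26 (limma adjusted p = 0.0859). That other probe passed as lower with median scaling (limma adjusted p = 0.0404), in the authors' processed table (0.0476) and without background correction (0.0477). The first did not pass without control replicate 1 (-0.39, limma adjusted p = 0.0949) or control replicate 2 (-0.49, limma adjusted p = 0.0612). CD151, a partner of laminin-binding integrins, differed by -0.17, -0.35 and -0.22 on 3 probes, none passing in the reported setting. The second passed as lower without KLF3 knockdown replicate 1 (-0.51, limma adjusted p = 0.0197) and with an offset of 50 (-0.27, limma adjusted p = 0.049). The third, the brightest, passed with an intensity trend (limma adjusted p = 0.0125), in the authors' processed table (0.0175) and without background correction (0.0182). TSPAN33, a TspanC8 gene, differed by 0.08 (limma adjusted p = 0.571), and CD9 and TSPAN15 had no kept probe.

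ADAM10 itself did not pass on either probe, at -0.29 (limma adjusted p = 0.062) and -0.36 (limma adjusted p = 0.104). The first passed as lower without background correction (-0.21, limma adjusted p = 0.0255), in the authors' processed table (0.0267), with median scaling (0.0312), an intensity trend (0.0355), an offset of 50 (0.0397) and the brightest probe per gene (0.0469). The second passed without KLF3 knockdown replicate 2 (-0.54, limma adjusted p = 0.04), with the replicate block (0.0429) and with median scaling (0.0495). A list of 24 genes held ADAM10, its processing enzymes, the related protease ADAM17, their substrates and, apart from these, MAPT. Of these genes 8 had kept probes. Of these 13 probes 0 passed as higher and 5 as lower, with a median of -0.29. The share called was 38.5%, against 34.5% of all kept probes (16.9% higher and 17.5% lower). At an unadjusted limma p under 0.05 the counts were 1 higher and 7 lower, against the 22.8% and 24% of all kept probes given above. The 4 genes that fell were CD44 on 2 probes (-1.37 and -0.59, the dimmer of which was detected on 1 of 2 KLF3 knockdown arrays), NOTCH1 (-0.55), MAPT, encoding tau (-0.53), and PCSK7, a convertase that processes ADAM10 (-0.35). Without control replicate 1 the count of lower probes was 2, and without control replicate 2 it was also 2. NOTCH1 and PCSK7 passed in neither of these runs, and MAPT did not pass in the second.

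Of the store-operated calcium entry genes, ORAI1 rose by 0.31 (SE 0.09, limma adjusted p = 0.0375). It read 236 and 233 in the KLF3 knockdown arrays, against 219 and 218 in the control arrays. ORAI1 did not pass without background correction (limma adjusted p = 0.0664), in the authors' processed table (0.0712) or with an intensity trend (0.074). Nor did it pass with median scaling (0.128), without the filter (0.114) or with the replicate block (0.0589), and it kept its call in 4 settings. It did not pass when any 1 array was left out, with differences of 0.27 to 0.36 and limma adjusted p of 0.0505 (without KLF3 knockdown replicate 1) to 0.163 (without control replicate 1). STIM1, the calcium sensor that opens ORAI1, differed by -0.12 (limma adjusted p = 0.41). Of 16 genes in the list 7 had kept probes. Of these 12 probes 2 passed as higher and 2 as lower, with a median of 0.11. The share called was 33.3%, against 34.5% of all kept probes. The others that passed were NFATC3 (0.70 on 1 of 4 probes) and NFATC1 (-0.36 and -0.56), transcription factors activated by calcium. Without control replicate 2 no NFATC1 probe passed (-0.27 and -0.42), whereas NFATC3 passed whichever array was left out. The brighter NFATC1 probe also did not pass without background correction (limma adjusted p = 0.14), in the authors' processed table (0.138) or with an intensity trend (0.103). Nor did it pass with the replicate block (0.0675) or an offset of 50 (0.0589). Without the filter neither NFATC1 probe passed (limma adjusted p = 0.144 and 0.0692). The dimmer NFATC1 probe entered only through the control arrays and was at least 1.22-fold lower on the normalized scale with the offset of 16.

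Of 30 tetraspanin partner genes 12 had kept probes. Of these 21 probes 4 passed as higher and 4 as lower, with a median of -0.24. The share called was 38.1%, against 34.5% of all kept probes. ITGB1, the integrin subunit shared by many tetraspanin complexes, differed by 0.08 and 0.13 without passing. PTGFRN, an immunoglobulin-family partner of CD9 and CD81, fell on both probes (-0.32 and -0.47, limma adjusted p = 0.0432 and 0.023), and IGSF8, its relative, had no kept probe. CD44, which also stands in the ADAM10 list, gave the other 2 lower probes. The genes that rose were ZDHHC2, encoding an enzyme that attaches palmitate to tetraspanins (0.59), CD47 on 1 of 2 probes (0.53), BSG, encoding basigin (0.51), and PI4K2B, encoding a lipid kinase (0.47). Without control replicate 1 the list had 0 higher and 1 lower probe, and without control replicate 2 it had 1 higher and 2 lower. BSG, CD47 and PI4K2B did not pass in either run, ZDHHC2 did not in the first, and PTGFRN passed on neither probe in these runs (-0.32 and -0.50 without control replicate 1, -0.32 and -0.44 without control replicate 2).

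Vesicle sorting genes were called at about the rate of all kept probes. Of 34 genes 31 had kept probes, and of these 45 probes 10 passed as higher and 7 as lower (37.8% called, against 34.5% of all kept probes), with a median of -0.03. Median scaling gave 6 higher and 10 lower. CHMP2A, of the membrane-cutting ESCRT-III complex, rose on 2 of 3 probes (0.60 and 0.82), and STAM2 (0.49), VPS25 (0.48 and 0.32) and VPS4A (0.43), of the ESCRT pathway, rose as well. VPS28 fell on 1 of 2 probes (-0.63), VPS4B fell by 0.38 and SDCBP, encoding syntenin, which binds syndecans and CD63, fell on both probes (-0.41 and -0.43). TIMP1, a secreted ligand of CD63, fell by 0.48. Without control replicate 1 the counts were 3 higher and 1 lower, and without control replicate 2 they were 1 and 0. STAM2, VPS25, VPS4A, VPS4B, SDCBP and TIMP1 passed in neither run.

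**Figure D5:**
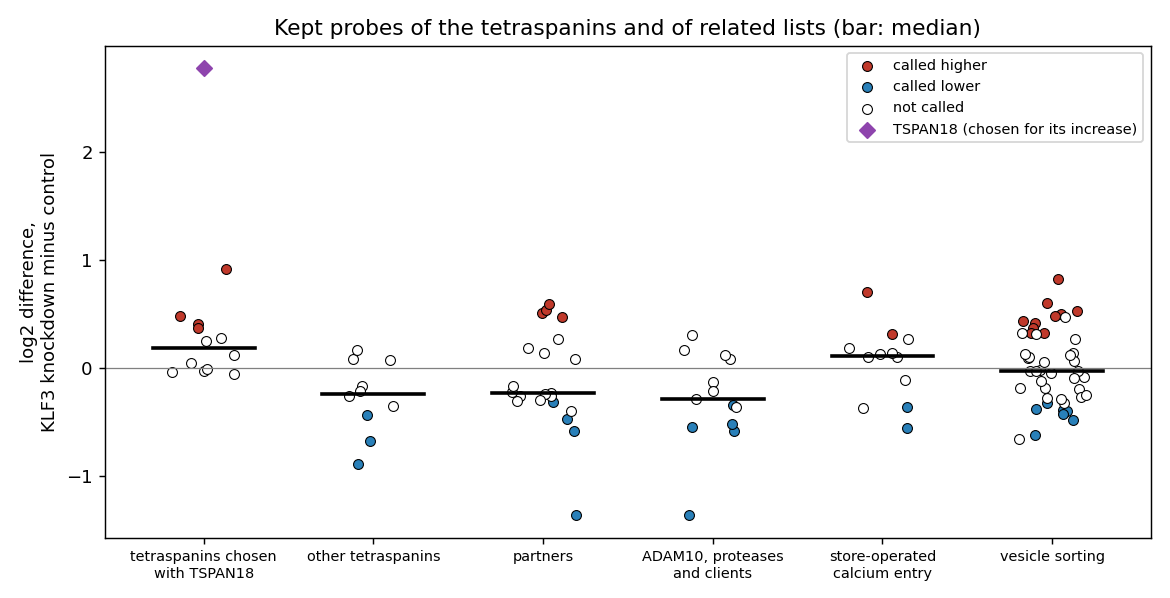
Log2 difference (KLF3 knockdown minus control) of every kept probe of the tetraspanins chosen with TSPAN18, of the other tetraspanins and of 4 related lists, coloured by the call of the limma test, with a bar at each median. The medians are 0.18 for the chosen tetraspanins without TSPAN18, -0.24 for the other tetraspanins and -0.03 for the vesicle sorting list. Nothing is read from the split between the chosen and the other tetraspanins, because the members were chosen with this comparison known. Probes of TSPAN9 and CD37, 2 of the 3 lower calls among the other tetraspanins, entered only through the control arrays.

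The labelled cell line was checked on its markers: of 8 K562 markers with a probe all were detected on every array, among them HBG1, HBE1 and GATA1, and none of 4 lymphoid genes was. The summed intensity of the K562 markers was 64988 to 67594 in the KLF3 knockdown arrays, against 43324 to 45360 in the control arrays, with 4 of 8 probes higher and 1 lower. Of 4 monocyte genes, LYZ and ITGAM were detected on all arrays, CD14 in the KLF3 knockdown arrays and CSF1R on none. The summed intensity of these 4 genes was 1591 to 1703 in the KLF3 knockdown arrays, against 1046 to 1105 in the control arrays. Of their kept probes 3 of 4 were called higher (LYZ by 1.88 on its brighter probe). The kept CD14 probe and the dimmer LYZ probe entered only through the KLF3 knockdown arrays, so their calls are only a description. Over all kept probes 16.9% were called higher and 17.5% lower. Of 5 megakaryocyte genes 2 were detected on all arrays. Of 4 fibroblast and epithelial genes EPCAM and KRT19 were detected on all arrays and 2 on none, with a summed intensity of 4092 to 4321 in the KLF3 knockdown arrays, against 4176 to 4252 in the control arrays, and 1 of 3 EPCAM probes called higher (0.36, limma adjusted p = 0.031). The part of these marker differences in the tetraspanin values was not tested, and in bulk RNA fewer cells of a type and less RNA per cell cannot be told apart. Detected probes numbered 15479 and 15534 on the KLF3 knockdown arrays, against 16182 and 15934 on the control arrays.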

How the data were processed

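Biotin-labelled RNA was measured on Illumina bead arrays, per the labels' protocols. The deposited scanner table holds unnormalized linear intensity values with their detection p-values, per the file headers. A second deposited table holds the authors' processed intensity values; how they were normalized is not stated in the headers. Gene symbols came from the platform annotation (30112 of 47322 probes with 1 symbol, 8 with several, 17202 unlisted).

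Intensities were corrected and normalized with neqc (limma 3.58.1, R 4.3.3; offset 16, background from the detection p-values). A probe was kept if either group had detection p under 0.01 on both of its arrays. Limma (lmFit, eBayes, two-sided, no covariates, 2 residual and 4.09 prior degrees of freedom) was fitted to all 15722 and Benjamini-Hochberg adjusted. It was also run on simulated data, which held far fewer changed probes than were called here, so nothing about these calls is read from it. A probe undetected in 1 group has a fold of at least the ratio to the lowest detected signal. The number of arrays limits the precision. SE are those of the limma fit.

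The members and gene lists were chosen with earlier results of these data known; the neighbours of TSPAN18 were added after the files were read. Named genes are all members, fixed names, up to 4 called genes with the smallest adjusted p per list and direction, and the 5 patterns nearest to TSPAN18. Neighbour order comes from GRCh38.p14. Promoters are from RefSeq. The headers name no slides. Same-numbered arrays did not deviate together (r = 0.009 across probes).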

Additional observations from a re-analysis of the deposited data

How the results depend on the processing

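Over the whole array 5420 probes were called, 2663 higher and 2757 lower. Without the filter on dim probes, which tests 47322 probes, the counts were 2273, 1152 and 1121, and without 1 array they ranged from 2057 to 4758, from 1071 to 2236 and from 986 to 2522, lowest without a control array. Median scaling gave 1906 higher and 3130 lower probes and moved the median difference to -0.08. Of the member probes other than TSPAN18, 4 were called, all higher; the count was 2 with median scaling, 1 without the filter and 1 to 3 without 1 array, and 5 without background correction. Median scaling lowered the share of higher among all calls to 37.8%, against 49.1% as reported, and ended the calls of TSPAN13 probe a (0.38, limma adjusted p = 0.0704) and TSPAN14 (0.27, limma adjusted p = 0.116). Averaging the probes of a gene ended that of TSPAN4 (0.21, limma adjusted p = 0.0674). Of the related lists 35 probes were called, 11 without the filter and 7 to 34 without 1 array; these list counts were added after seeing the data. TSPAN13 probe b was called under every setting that fitted it, and no called direction reversed in these settings. With the replicate block, for which only the word Repeat in the titles speaks, 4836 probes and 3 member probes were called, and TSPAN13 probe a did not pass (0.41, limma adjusted p = 0.063). TSPAN18 ran from 1.47 to 2.81 on the log2 scale. The slide as a block was not run, because the headers name no slides. Dim probes such as TSPAN18 in the control arrays are limited by background, and the cause of each changed call was not tested.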
